A study of Mus musculus with 8 samples.

Results

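Interferon-stimulated genes are the genes that cells switch on when an interferon binds its receptor, and 47 of them were followed here in hair follicle cells of injured mouse skin. They were chosen by name, and all 47 were found through their Ensembl identifiers among the 46078 genes of the deposited count table. The cells came from mice of the strain labelled Lg5-egfp-ires-creert2/R26-tdTomato. In such mice an inducible Cre recombinase made in cells that express Lgr5, a marker of follicle stem cells, switches on a red fluorescent protein for good in those cells and their progeny. All 8 libraries carried this reporter and came from skin-injured mice, so no uninjured sample stands beside them. They were Treg-sufficient (regulatory T cells present, n = 4) or Treg-depleted (regulatory T cells absent, n = 4). Replicates 1 and 2 of each condition belonged to experiment 1 and replicates 3 and 4 to experiment 2. Neither the age of the mice nor the means of depletion is stated in the labels, nor whether each replicate was a separate animal. The p-values below therefore measure the spread between these libraries, part of which may be technical.

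As background, type I interferons (alpha and beta) and type III interferons (lambda) signal through the kinases JAK1 and TYK2 to a complex that holds STAT2 and IRF9 and binds a DNA element called ISRE. Type II interferon (gamma), made mainly by T and natural killer cells, signals through JAK1 and JAK2, and its early targets carry an element called GAS. IRF1, itself a target of the gamma route, binds ISRE-like sequences and switches on a second wave of targets, among them guanylate-binding proteins and immunity-related GTPases. The products restrict viruses and intracellular bacteria, and many are kept at a low level in resting epithelia.

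Promoter sequences of 7 members the results turn on are printed to show where either element is matched. Irf1 and Ifit2 hold GAS matches alone, Gbp2, Isg15 and Ifit1 hold ISRE matches alone, and Igtp and Ifitm3 hold both. In each sequence, taken from RefSeq on GRCm38.p6 and printed 5′ to 3′ along the gene's own strand, capitals mark every match to the ISRE pattern GAAANNGAAA or the GAS pattern TTCNNNGAA on either strand. The first 5 cover the 120 bases before the annotated start, and that of Ifit2 covers bases -250 to -191. That of Ifitm3 covers bases +3 to +29, after the annotated start, since all its matches lie there and 2 of them overlap. In Isg15 the run of capitals is 3 overlapping ISRE matches.
Irf1, chr11:53769894-53770013, plus strand: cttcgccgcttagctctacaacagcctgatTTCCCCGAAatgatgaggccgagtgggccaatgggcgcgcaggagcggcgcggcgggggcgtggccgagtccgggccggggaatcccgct
Igtp, chr11:58199436-58199555, plus strand: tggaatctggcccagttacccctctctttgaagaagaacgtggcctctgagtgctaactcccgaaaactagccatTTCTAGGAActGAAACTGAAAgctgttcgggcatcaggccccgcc
Gbp2, chr3:142620543-142620662, plus strand: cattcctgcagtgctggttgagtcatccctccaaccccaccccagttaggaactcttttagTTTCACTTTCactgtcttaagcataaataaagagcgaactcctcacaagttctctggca
Isg15, chr4:156200819-156200938, minus strand: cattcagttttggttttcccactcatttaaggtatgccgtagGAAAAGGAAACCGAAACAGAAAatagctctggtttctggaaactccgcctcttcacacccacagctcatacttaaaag
Ifit1, chr19:34640769-34640888, plus strand: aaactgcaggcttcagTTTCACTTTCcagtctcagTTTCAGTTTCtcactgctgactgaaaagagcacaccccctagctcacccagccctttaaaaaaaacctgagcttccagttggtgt
Ifit2, chr19:34550444-34550503, plus strand: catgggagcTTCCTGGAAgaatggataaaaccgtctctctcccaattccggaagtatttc
Ifitm3, chr7:141010716-141010742, minus strand: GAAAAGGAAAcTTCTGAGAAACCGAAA

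RefSeq promoter windows of 300 bases (250 before to 50 after the start) were at hand for 36 of the 47 members. Of these, 19 (52.8%) held an ISRE match, against 3.99% of the 27025 genes with a window. A GAS match was held by 10 (27.8%), against 9.55% of genes. All 5 GTPase genes with a window had an ISRE match, and so had 4 of 6 in the IFIT group and 2 of 4 in the OAS and Mx group. The window of Irf1 had a GAS match 90 bases before the start and no ISRE match. A match is a string of letters and does not show that a factor was bound. No match says only that these letters are not in the window.

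The labelled cell identity stood in the libraries. Lgr5 ranged from 308 to 517 CPM (counts scaled to a common library total after TMM scaling) and the basal keratin gene Krt5 from 6438 to 12971 CPM. Totals over genes ran from 22330729 to 29975347 counts, and 3 counts, the limit that a count of 0 allows, correspond to 0.0992 to 0.143 CPM for counting error only. Of 5 general leukocyte markers the sum was 1.05 to 1.79 CPM, and Ptprc, their defining gene, had at most 11 counts in a library. Foxp3, the defining gene of regulatory T cells, had at most 22 counts, and Cd3e and Cd3g, subunits of the T cell receptor complex, at most 2 and 1. The list of 10 T cell markers nevertheless summed to 20.8 to 35.1 CPM in every library. Most of that sum was Trbc2, a T cell receptor chain gene, at 14.3 to 26.9 CPM, and Lck, a T cell kinase gene, at 2.71 to 10.5 CPM. Xist, from the inactive X chromosome, stood at 2671 CPM in Treg-sufficient replicate 2, at 76.8 CPM in Treg-depleted replicate 2 and at no more than 2.17 CPM in the other libraries. The 4 Y-linked genes summed to 2.80 CPM in Treg-sufficient replicate 2 and to 319 to 425 CPM in the other 7, Treg-depleted replicate 2 included (337 CPM). Treg-sufficient replicate 2, a control of experiment 1, thus had the Xist and Y-linked levels of female cells, and no other library did. Treg-depleted replicate 2 and Treg-sufficient replicate 3 had counts for the fewest genes (18605 and 19593) and the lowest shares of reads in no gene (6.63% and 6.70%).

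Most members were present at low levels. Per kilobase of exon, which allows levels to be compared between genes, the median of the 47 was 1.85 CPM per kb, 31 were above 1 and 5 above 10. The highest was Ifitm3, a membrane protein that blocks virus entry, at 175 CPM per kb, and next came Ifi27, a mitochondrial protein, at 55.5. Trim25, a ubiquitin ligase of RNA sensing, stood at 13.1, Irf9 at 12.7 and Irf1 at 10.5 CPM per kb. At the low end 12 members were under 0.5 CPM per kb. The virus sensor and effector genes Oas2 (0.146) and Oas3 (0.0876), Rsad2 (0.235), which encodes the antiviral enzyme viperin, and Ifi44 (0.248) were among these. With at most 26 counts in any library, Ifit3b, Oasl1, Zbp1 and Trim30a did not pass the filter on low counts, so 43 members were tested. Reads aligned to several places were not counted. Levels of members with near-identical relatives (Ifit3 and Ifit3b, Oas1a, the guanylate-binding protein genes) are therefore uncertain.

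The clearest pattern among the members was set by single libraries. Of the 43 tested members 29 (67.4%) had their highest level in Treg-depleted replicate 1, against 22.5% of all genes tested, and 24 (55.8%) had their lowest level in Treg-sufficient replicate 3, against 19.8%. The mean deviation of the members from the 8-library mean was 0.70 in Treg-depleted replicate 1 on the log2(CPM + 0.5) scale. It was -0.33 in Treg-depleted replicate 2, of the same experiment and condition. In the other Treg-depleted libraries it was -0.02 and -0.07. Among Treg-sufficient replicates 1 to 4 it was -0.12, 0.39, -0.64 and 0.10. Over all genes tested every library lay between -0.05 and 0.03, which the scaling largely sets.

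**Figure D1:**
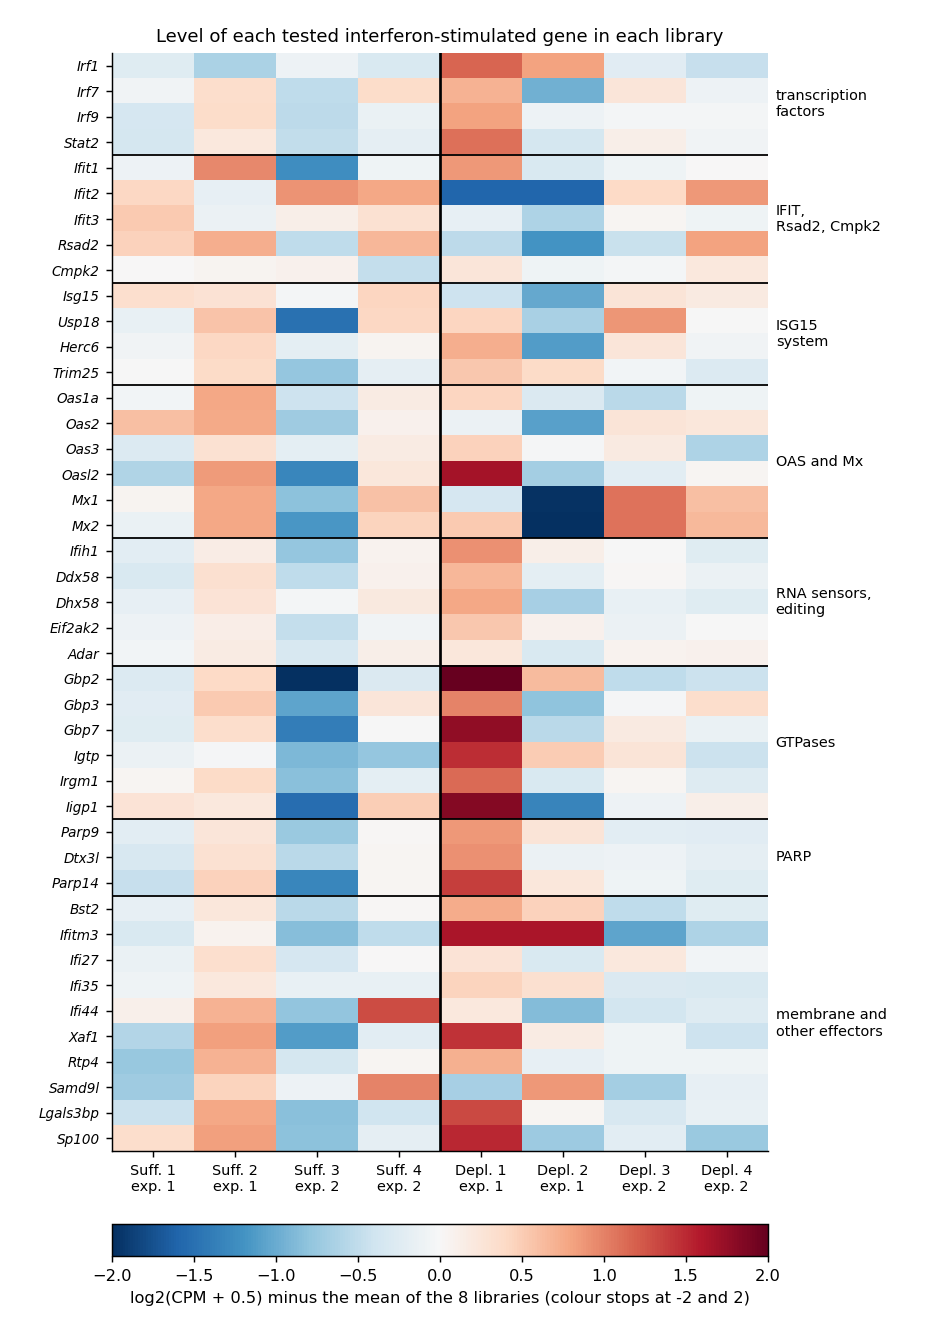
Each row is 1 of the 43 tested members, grouped by role, and each column 1 library. Colour gives log2(CPM + 0.5) minus the gene's mean over the 8 libraries. Treg-depleted replicate 1 is the warmest column and Treg-sufficient replicate 3 the coldest (mean deviations 0.70 and -0.64), while Ifit2, Isg15 and Mx1 are below their mean in both Treg-depleted libraries of experiment 1.

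Every role held members that were highest in Treg-depleted replicate 1, in different shares. They were all 4 transcription factor genes, all 6 GTPase genes, all 5 tested RNA sensor and editing genes and all 3 genes of the PARP group. Among the membrane and other effectors it was 6 of 10, in the OAS and Mx group 2 of 6, in the IFIT group 1 of 5 and in the ISG15 group 2 of 4. Summed over the 6 GTPase genes, the level was 121 CPM in Treg-depleted replicate 1 and 29.6 to 36.7 CPM in the other Treg-depleted libraries. In the Treg-sufficient libraries it ran from 14.1 CPM in replicate 3 to 43.7 CPM in replicate 2. For the 7 OAS and Mx genes the sum was 51.3 CPM in Treg-depleted replicate 1 but 42.3 CPM in Treg-sufficient replicate 2, and the lowest were Treg-sufficient replicate 3 and Treg-depleted replicate 2 (10.7 and 11.2 CPM).

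Replicates of one condition and experiment thus differed more for these genes than for genes at large. Treg-depleted replicate 1 exceeded replicate 2 for 40 of 43 members, with a median log2 difference of 0.97, against 0.03 over all genes tested. Treg-sufficient replicate 1 was below replicate 2 with a median of -0.48, and Treg-sufficient replicate 3 below replicate 4 with a median of -0.60. The pair that lay closest was Treg-depleted replicates 3 and 4, with a median of 0.07 and 26 of 43 members positive. TMM scaling largely removes such shifts over all genes, so the size of the difference without its sign was also taken. Its median was 0.97 for members against 0.37 for all genes in Treg-depleted replicates 1 and 2. In Treg-depleted replicates 3 and 4 it was 0.24 against 0.18. In Treg-sufficient libraries it was 0.56 against 0.21 in replicates 1 and 2, and 0.60 against 0.27 in replicates 3 and 4. Several other measures also differed between these libraries, not always in step with the members. The share of reads in no gene was highest in Treg-depleted replicate 1 (10.8%), and it was lowest in Treg-depleted replicate 2 and Treg-sufficient replicate 3. The summed level of 4 regulatory T cell marker genes was 37.5 CPM in Treg-depleted replicate 1 and 5.71 to 14.7 CPM elsewhere. The 14.7 CPM was in Treg-depleted replicate 2, where the members were low. Of that 37.5 CPM, Ikzf2, a transcription factor gene, made up 36.2 CPM. The 5 general leukocyte markers summed to 1.79 CPM in Treg-depleted replicate 1 and 1.77 CPM in Treg-depleted replicate 2. Only 1 of these 5 genes passed the filter on low counts, so their sum says little of either library. The part of any of these measures in the members' levels was not tested.

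**Figure D2:**
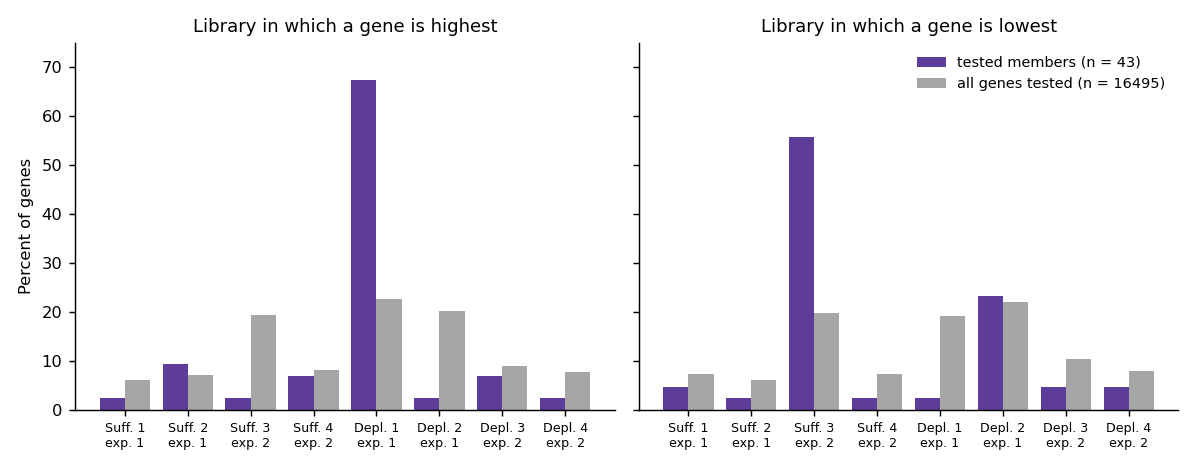
Bars give the percent of genes that have their highest (left) or lowest (right) level in each library, for the 43 tested members and for all 16495 genes tested. The members' bar reaches 67.4% for the highest level in Treg-depleted replicate 1 and 55.8% for the lowest level in Treg-sufficient replicate 3.

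Between conditions, which asks how these cells differ when regulatory T cells are missing, no member passed a Benjamini-Hochberg adjusted p of 0.05 in edgeR's quasi-likelihood test with experiment as a term. This was so for 0 of 43 members and for 0 of 16495 genes (0%). Log2 fold changes were positive for 33 members and negative for 10, with a median of 0.22 against 0.00 over all genes tested. Without Treg-depleted replicate 1 that median turned to -0.02. At an unadjusted p under 0.05 there was 1 member higher and 1 lower, 2 of 43, where 7.12% of all genes met that threshold (3.50% higher and 3.62% lower). The higher one was Igtp and the lower one Ifit2. No member had all 4 Treg-depleted libraries above or below all 4 Treg-sufficient ones, against 1.27% of genes above and 1.05% below. DESeq2 called 1 member (Igtp), edgeR without a filter on low counts 7, and limma-voom 0.

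Within experiment 1, Irf1 and Ifitm3 rose in Treg-depleted cells. They were the 2 of 43 members to pass in a model of 4 groups, both higher, where 0.606% of genes passed (0.224% higher and 0.382% lower). The median over the members was 0.27 and 28 of 43 were positive, but it moved with each library left out. Dropping replicate 1 gave -0.42 (Treg-depleted) or -0.02 (Treg-sufficient), and dropping replicate 2 gave 0.62 or 0.53. Without both libraries that held Xist reads it was 0.97, a comparison of replicate 1 of each condition, 1 library against 1. At an unadjusted p under 0.05 there were 4 members higher (Irf1, Ifitm3, Gbp2, Igtp) and 3 lower (Ifit2, Rsad2, Isg15), against 4.59% and 6.47% of genes. Both Treg-depleted libraries were above both Treg-sufficient ones for 8 members, and below for 6, against 18.6% and 19.0% of genes. The 8 were Irf1, Trim25, Gbp2, Igtp, Parp9, Bst2, Ifitm3 and Ifi35. The 6 were Ifit2, Ifit3, Rsad2, Isg15, Oas2 and Mx1. The 9 fibroblast markers summed to 108 and 46.9 CPM in Treg-sufficient replicates 1 and 2 and to 24.5 and 37.0 CPM in Treg-depleted replicates 1 and 2. The 6 neutrophil markers were highest in Treg-depleted replicate 2 (11.1 CPM, 3.51 to 7.12 CPM elsewhere). The part of either in these differences was not tested. In bulk RNA, fewer cells that express a gene and less of its RNA per cell cannot be told apart.

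Within experiment 2, with the same 4-group model, 0 of 43 members passed (0% of genes), and 0 had an unadjusted p under 0.05, against 1.75% of genes. DESeq2 and limma-voom called 0 members as well. The median log2 fold change was 0.18, with 32 positive. Dropping Treg-sufficient replicate 3 gave -0.14, and dropping replicate 4 of that condition 0.53. The 2 libraries of each condition did not overlap for 8 members that were higher in Treg-depleted cells and 4 that were lower, against 16.7% and 15.9% of genes. The higher ones were Irf9, Stat2, Ifit1, Oas2, Mx1, Mx2, Igtp and Lgals3bp. The lower ones were Ifit3, Dhx58, Ifi35 and Samd9l. Igtp was the one member on the higher side in both experiments, and Ifit3 on the lower side. The share of all genes on the same side in both was not counted, so this does not set Igtp or Ifit3 apart. Oas2 and Mx1 changed sides in one direction and Ifi35 in the other, 3 of 43 members (6.98%) against 4.41% of genes.

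The difference of the condition effect between experiments was tested as an interaction, and 0 of 43 members passed (0% of genes). At an unadjusted p under 0.05 it was more positive in experiment 2 for 3 members (Ifit2, Isg15, Mx1) and more negative for 2 (Irf1, Ifitm3), against 3.59% and 2.01% of genes. DESeq2 called Irf1 and Ifitm3, and limma-voom 0 members. An effect that passed in experiment 1 and not in experiment 2 is thus not shown by edgeR to differ between them.

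**Figure D3:**
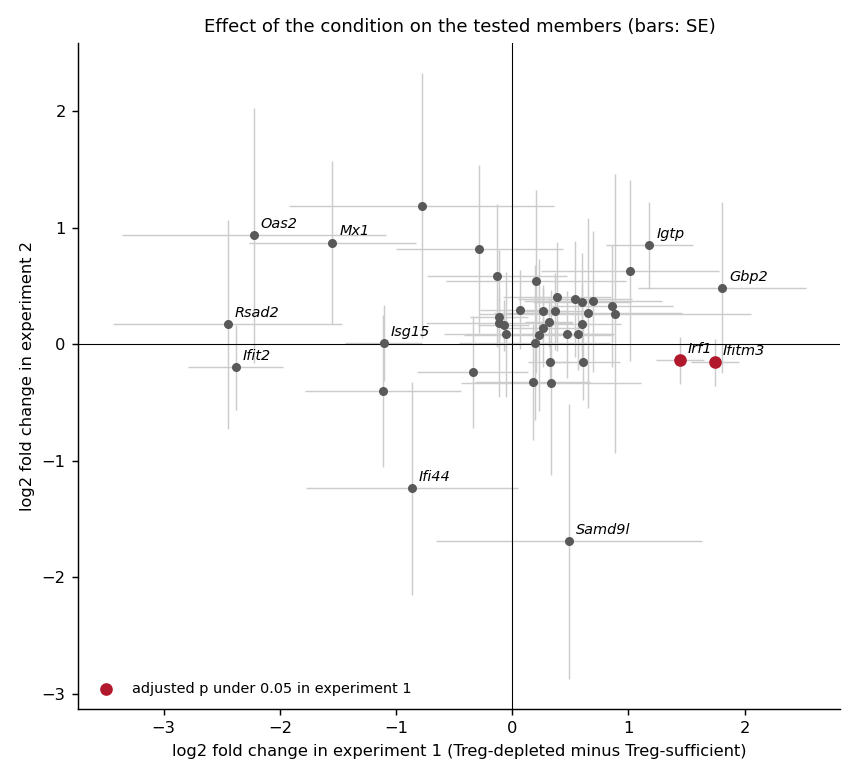
Each point is 1 tested member, with its log2 fold change (Treg-depleted minus Treg-sufficient) in experiment 1 on the horizontal and in experiment 2 on the vertical axis, and bars for the SE. Irf1 and Ifitm3, in red, lie at 1.44 and 1.75 in experiment 1 and at -0.14 and -0.16 in experiment 2. Ifit2, Rsad2 and Oas2 lie at the left, below -2 in experiment 1.

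Between experiments, 35 of the 43 members were lower in experiment 2, with a median log2 difference of -0.41 against -0.02 over all genes tested. With Treg-depleted replicate 1 left out it was -0.19. None of the 43 passed, while 268 genes did (1.62%). At an unadjusted p under 0.05 there was 1 member higher in experiment 2 (Ifit2) and 13 lower, against 11.4% and 10.6% of genes. All 4 libraries of experiment 2 were below all 4 of experiment 1 for 4 members (Trim25, Gbp2, Ifitm3, Ifi35) and above for 0, against 5.86% and 7.49% of genes. DESeq2 called 8 members, limma-voom 0, and the 4-group model in edgeR 2 (Ifit2 and Ifitm3).

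Among the transcription factor genes, Irf1 (ENSMUSG00000018899, GRCm38 chromosome 11, 53770014 to 53778374, plus strand, protein coding), the factor of the second wave, was higher in the Treg-depleted libraries of experiment 1 than in every other library. Its level was 31.9, 24.2, 35.2 and 30.8 CPM in Treg-sufficient replicates 1 to 4 and 85.7, 66.9, 32.5 and 27.4 CPM in Treg-depleted replicates 1 to 4. The 2 Treg-depleted libraries of experiment 1 lay above the other 6, and those of experiment 2 lay within the range of the Treg-sufficient ones. The share of all genes with these 2 libraries on top was not counted, here or for Ifitm3 below. Of all genes tested, 22.5% were highest in Treg-depleted replicate 1 and 20.2% in Treg-depleted replicate 2. In experiment 1 it rose from 28.1 ± 5.48 to 76.3 ± 13.3 CPM (SD, n = 2 each). The log2 fold change was 1.44 (SE 0.20, edgeR adjusted p = 0.0364), against -0.14 (SE 0.20) in experiment 2. The interaction was -1.58 (SE 0.29, unadjusted p = 0.000574, edgeR adjusted p = 0.254). The call in experiment 1 ended when any 1 of 7 libraries was left out (adjusted p from 0.0670 to 0.133), at log2 fold changes of 1.22 to 1.66. It held without Treg-depleted replicate 2 (edgeR adjusted p = 0.0144). Between conditions Irf1 had 0.66 (SE 0.31, edgeR adjusted p = 0.696).

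The 3 other factor genes were highest in Treg-depleted replicate 1. Irf9, which encodes the DNA-binding subunit of the ISRE complex, stood at 51.8, 84.7, 45.5 and 60.1 CPM in Treg-sufficient and at 115, 61.4, 64.0 and 64.2 CPM in Treg-depleted replicates 1 to 4. Stat2, its partner, stood at 36.8, 54.6, 33.4 and 41.4 against 102, 36.6, 51.3 and 44.8 CPM. In experiment 2 both Treg-depleted libraries were above both Treg-sufficient ones for Irf9 and Stat2, with log2 fold changes of 0.28 (SE 0.33) and 0.36 (SE 0.42). Irf7, which amplifies type I interferon output in infected cells, ran from 5.11 CPM in Treg-depleted replicate 2 to 17.3 CPM in Treg-depleted replicate 1, and its Treg-sufficient libraries lay inside that range (7.24 to 13.6 CPM).

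Among the membrane and other effectors, Ifitm3 (ENSMUSG00000025492, chromosome 7, 141009586 to 141010770, minus strand, protein coding) showed the largest rise that passed. It stood at 73.4, 95.0, 50.2 and 64.1 CPM in Treg-sufficient replicates 1 to 4 and at 282, 283, 43.6 and 59.0 CPM in Treg-depleted replicates 1 to 4. Both Treg-depleted libraries of experiment 1 were high and alike, also the one in which most other members were low. In experiment 1 the rise was from 84.2 ± 15.3 to 283 ± 0.678 CPM (SD, n = 2 each), a log2 fold change of 1.75 (SE 0.21, edgeR adjusted p = 0.021). In experiment 2 it was -0.16 (SE 0.20), and the interaction was -1.90 (SE 0.29, unadjusted p = 0.000184, edgeR adjusted p = 0.153). The call in experiment 1 ended without any 1 of the Treg-sufficient libraries (edgeR adjusted p from 0.0505 to 0.128) and held without any 1 of the Treg-depleted ones, with log2 fold changes of 1.57 to 1.91 throughout. Between experiments Ifitm3 had -1.51 (SE 0.37, edgeR adjusted p = 0.0673).

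Its neighbour in function Ifitm2, which is not among the 47, stood at 236 and 259 CPM in Treg-depleted replicates 1 and 2 and at 123 to 157 CPM in the other libraries (experiment 1 log2 fold change 0.68). None of the other 9 tested effectors passed in any comparison. Bst2, which encodes tetherin, a protein that holds budding viruses on the cell, had 5.12 and 6.93 CPM in Treg-sufficient replicates 1 and 2 against 10.1 and 8.21 CPM in Treg-depleted replicates 1 and 2. Ifi35 had 16.0 and 19.7 against 23.2 and 21.2 CPM in experiment 1, and 15.2 and 15.2 against 13.7 and 13.6 CPM in experiment 2. Ifi27 ranged from 63.4 to 102 CPM with no separation of the groups in either experiment. Xaf1, a pro-apoptotic factor, Lgals3bp, a secreted glycoprotein, and Sp100, a nuclear body protein, were each highest in Treg-depleted replicate 1, at 21.01, 35.5 and 22.2 CPM. Samd9l, Rtp4 and Ifi44 stayed under 4 CPM in every library.

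**Figure D4:**
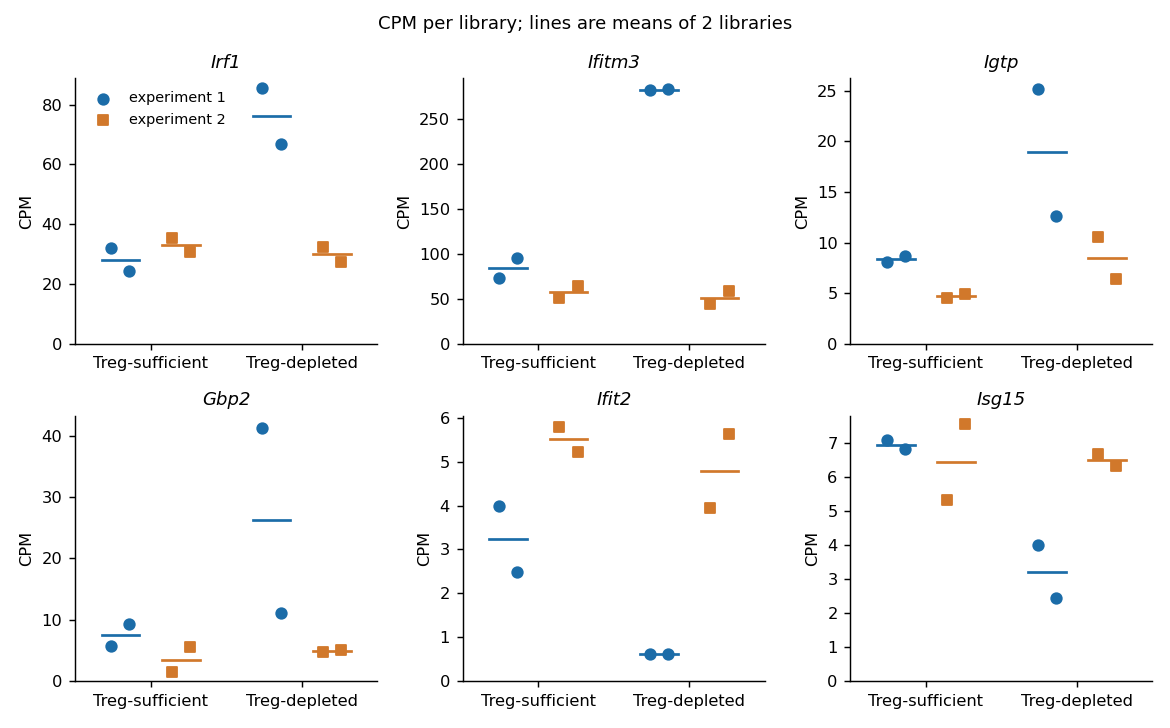
Points give CPM in each library for 6 members, with experiment 1 as blue circles and experiment 2 as orange squares, and lines give the mean of the 2 libraries of each condition in each experiment. Irf1 and Ifitm3 are high in both Treg-depleted libraries of experiment 1, Gbp2 mainly in 1 of them (41.2 and 11.1 CPM), and Ifit2 and Isg15 are low in both.

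The GTPase genes had positive fold changes between conditions and in each experiment, but their extremes lay in single libraries. All 6 were highest in Treg-depleted replicate 1 and lowest in Treg-sufficient replicate 3. They encode guanylate-binding proteins and immunity-related GTPases, which act on the vacuoles of intracellular pathogens. All 6 were positive between conditions (median 0.70) and in experiments 1 and 2 (medians 0.95 and 0.51), and 0 of 6 passed in any comparison. Of 16495 genes tested, 8303 were positive between conditions, 8570 in experiment 1 and 8274 in experiment 2. In Treg-depleted replicate 2, Gbp3, Gbp7, Irgm1 and Iigp1 lay below both Treg-sufficient libraries of experiment 1, and Gbp2 and Igtp above both. Igtp (ENSMUSG00000078853, chromosome 11, 58199556 to 58207591, plus strand, protein coding) stood at 8.09, 8.63, 4.50 and 4.93 CPM in Treg-sufficient replicates 1 to 4. In Treg-depleted replicates 1 to 4 it stood at 25.2, 12.7, 10.6 and 6.42 CPM. Every Treg-depleted library exceeded both Treg-sufficient libraries of its own experiment, though the groups overlapped across experiments. How many of all genes show this order was not counted. Its log2 fold change between conditions was 1.02 (SE 0.26, unadjusted p = 0.00341, edgeR adjusted p = 0.686), with 1.18 (SE 0.37) in experiment 1 and 0.85 (SE 0.38) in experiment 2. Without Treg-depleted replicate 1 these were 0.74 between conditions and 0.57 in experiment 1. In the gene models used here, Irgm2 spans nearly all of Igtp on the same strand. Reads assigned to several genes were left out, so the level of Igtp is uncertain.

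Gbp2 stood at 5.66, 9.35, 1.37 and 5.59 CPM in Treg-sufficient and at 41.2, 11.1, 4.76 and 5.03 CPM in Treg-depleted replicates 1 to 4. Treg-depleted replicate 1 was thus far above all other libraries, and Treg-sufficient replicate 3 far below. The log2 fold change in experiment 1 was 1.80 (SE 0.72, edgeR adjusted p = 0.406). Gbp7 reached 18.6 CPM and Irgm1 22.8 CPM in Treg-depleted replicate 1, and the other 7 libraries ran from 1.64 to 6.65 CPM and from 5.41 to 13.3 CPM. Without that library the log2 fold change of Irgm1 in experiment 1 turned from 0.38 to -0.58. Gbp3 and Iigp1 were lower, at most 5.22 and 7.76 CPM, again in Treg-depleted replicate 1. The lowest level of all 6 genes was in Treg-sufficient replicate 3.

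The PARP group comprises Parp9 and Dtx3l, whose products form a complex that modifies histones, and Parp14, a neighbour on chromosome 16. Parp9 had 25.5, 35.4, 17.6 and 30.3 CPM in Treg-sufficient and 54.6, 35.6, 25.6 and 25.3 CPM in Treg-depleted replicates 1 to 4. Parp14 had 22.7, 43.5, 12.5 and 32.3 against 83.0, 37.1, 29.6 and 26.6 CPM. The log2 fold changes in experiment 1 were 0.57 (SE 0.31) for Parp9, 0.47 (SE 0.37) for Dtx3l and 0.86 (SE 0.52) for Parp14, and 0 of 3 passed. Leaving out 1 library moved Parp9 to between 0.20 and 0.81 and Parp14 to between 0.14 and 1.37, the lowest values being those without Treg-depleted replicate 1. The Parp14 values without Treg-sufficient replicates 1 and 2 in turn were 0.47 and 1.37, and without Treg-depleted replicate 2 it was 1.29. Parp9 without Treg-sufficient replicate 1 had 0.35. Parp9 and Dtx3l overlap at their starts on opposite strands, and whether the counting used strand is not given in the sources used here.

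Genes of RNA sensing differed little apart from Treg-depleted replicate 1. Ifih1, the sensor MDA5, stood at 30.9, 39.6, 20.6 and 37.6 CPM in Treg-sufficient and at 67.8, 38.8, 35.7 and 30.3 CPM in Treg-depleted replicates 1 to 4. Ddx58, the sensor RIG-I, ran from 27.4 CPM in Treg-sufficient replicate 3 to 63.0 CPM in Treg-depleted replicate 1. Eif2ak2, the kinase PKR that stops translation on double-stranded RNA, had the smallest p of the role between conditions, with 42.5 ± 7.22 CPM in Treg-sufficient and 50.8 ± 11.2 CPM in Treg-depleted libraries (n = 4 each). Its log2 fold change was 0.25 (SE 0.14). Adar, which edits adenosine in double-stranded RNA, differed little, at 41.6 to 58.7 CPM against 42.0 to 61.2 CPM (log2 fold change 0.04, SE 0.15).

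The IFIT group holds the Ifit genes, whose products bind viral RNA, together with Rsad2 and Cmpk2. Of its 5 tested members 0 passed in experiment 1, where 4 had negative log2 fold changes (median -1.11). Ifit2 (ENSMUSG00000045932, chromosome 19, 34550694 to 34576419, plus strand, protein coding) had 3.99, 2.49, 5.79 and 5.23 CPM in Treg-sufficient replicates 1 to 4 and 0.618, 0.621, 3.95 and 5.64 CPM in Treg-depleted replicates 1 to 4. The Treg-depleted libraries of experiment 1 were the lowest 2 of the 8, and those of experiment 2 lay among the controls. The share of all genes with these 2 libraries lowest was not counted. Of all genes tested, 19.2% were lowest in Treg-depleted replicate 1 and 22.0% in Treg-depleted replicate 2. The log2 fold change in experiment 1 was -2.38 (SE 0.41, unadjusted p = 0.00042, edgeR adjusted p = 0.0558), just outside the threshold, and DESeq2 called it. In experiment 2 it was -0.20 (SE 0.36), with an interaction of 2.18 (SE 0.54, unadjusted p = 0.004, edgeR adjusted p = 0.443). Between experiments Ifit2 had 1.77 (SE 0.47, edgeR adjusted p = 0.0771), the one member of 43 higher in experiment 2 at an unadjusted p under 0.05.

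Rsad2, at 0.0955 to 1.88 CPM, had -2.45 (SE 0.99, edgeR adjusted p = 0.407) in experiment 1. Ifit3 had 1.13 and 0.546 CPM in Treg-sufficient replicates 1 and 2 against 0.515 and 0.239 CPM. Ifit1 had a log2 fold change of -0.13 (SE 0.60) in experiment 1. It stood at 3.92, 8.74, 1.52 and 3.97 CPM in Treg-sufficient and at 8.17, 3.34, 3.99 and 4.29 CPM in Treg-depleted replicates 1 to 4, with no order by condition. Cmpk2, a mitochondrial nucleotide kinase whose gene adjoins Rsad2, had 2.84 to 4.46 against 3.91 to 5.01 CPM.

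Isg15 (ENSMUSG00000035692, chromosome 4, 156199424 to 156200818, minus strand, protein coding) encodes a ubiquitin-like protein that is attached to other proteins. It stood at 7.08, 6.83, 5.33 and 7.54 CPM in Treg-sufficient and at 3.98, 2.43, 6.66 and 6.31 CPM in Treg-depleted replicates 1 to 4. The 2 Treg-depleted libraries of experiment 1 were the lowest of the 8, an order not counted over all genes. The log2 fold change in experiment 1 was -1.11 (SE 0.33, unadjusted p = 0.0106, edgeR adjusted p = 0.229), against 0.01 (SE 0.32) in experiment 2. The interaction was 1.12 (SE 0.46, edgeR adjusted p = 0.862). Of the 3 other genes of the ISG15 system 0 passed in experiment 1. Trim25 stood at 72.3, 94.1, 42.1 and 63.9 against 106, 94.1, 69.5 and 59.6 CPM. Usp18, which removes ISG15, was lowest in Treg-sufficient replicate 3 (1.49 CPM) and highest in Treg-depleted replicate 3 (9.87 CPM). Herc6, the ligase that attaches ISG15 in mice, ran from 1.19 to 5.56 CPM, both in Treg-depleted libraries of experiment 1.

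The OAS and Mx genes, which encode synthetases that activate RNase L and dynamin-like GTPases that trap viral particles, split between libraries of one condition. Oasl2 stood at 7.51, 21.2, 4.42 and 13.7 CPM in Treg-sufficient and at 38.0, 7.07, 9.91 and 11.98 CPM in Treg-depleted replicates 1 to 4. Mx1 stood at 5.04, 8.63, 2.51 and 7.54 against 3.74, 0.859, 10.8 and 7.62 CPM. Its log2 fold change was -1.55 (SE 0.72) in experiment 1 and 0.87 (SE 0.70) in experiment 2, and it passed in neither. In experiment 1 it was -3.01 without Treg-depleted replicate 1, -0.90 without Treg-depleted replicate 2 and -0.47 without both libraries with Xist reads. The last value compares 1 library with 1. In experiment 2 dropping Treg-sufficient replicate 3 gave 0.29 and dropping replicate 4 gave 1.87. Mx2, annotated as a polymorphic pseudogene, also had its lowest level in Treg-depleted replicate 2 (0.0955 CPM) and its highest in Treg-depleted replicate 3 (5.30 CPM). Oas1a ran from 2.32 to 5.90 CPM in Treg-sufficient and from 2.09 to 4.53 CPM in Treg-depleted libraries. Oas2 had 0.152 to 1.30 CPM in Treg-sufficient libraries, and its 0 counts in Treg-depleted replicate 2 allow up to 0.143 CPM in that library.

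Upstream of these genes, almost no reads were counted for interferon genes. Of 21 interferon genes listed, 18 had no count in any library. The others were Ifng with 1 count in Treg-sufficient replicate 2, Ifnk with 1 count in Treg-depleted replicate 4 and Ifnz with at most 6 counts, in Treg-depleted replicate 2. In sorted follicle cells these counts say nothing of interferon made by other cells of the skin. Reads aligned to several places were not counted, so transcripts of near-identical genes, such as those for interferon alpha, may be missed. Receptor genes were present throughout, and 0 of 6 passed in any comparison. Ifnar1, a chain of the type I receptor, stood at 63.2 to 81.6 CPM in Treg-sufficient and 70.7 to 80.4 CPM in Treg-depleted libraries. Ifnlr1, of the type III receptor, stood at 23.5 to 29.0 against 21.7 to 45.0 CPM. The gamma receptor genes Ifngr1 and Ifngr2 had log2 fold changes of 0.49 (SE 0.23) and 0.06 (SE 0.17) between conditions.

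Of 7 tested kinase and signal factor genes 0 passed. Jak1 ran from 176 to 236 CPM over the 8 libraries. Jak2 stood at 70.2, 78.0, 72.8 and 88.8 CPM in Treg-sufficient and at 115, 104, 92.6 and 96.4 CPM in Treg-depleted replicates 1 to 4. Every Treg-depleted library was above every Treg-sufficient one, as was so for 1.27% of all genes tested. The log2 fold change of Jak2 was 0.40 (SE 0.11, unadjusted p = 0.00685, edgeR adjusted p = 0.686). Irf2, a relative of Irf1 that competes for its sites, had 0.56 (SE 0.24). Among 8 feedback inhibitors 0 passed. Socs3 stood at 154, 49.99, 120 and 125 CPM in Treg-sufficient and at 263, 356, 105 and 119 CPM in Treg-depleted replicates 1 to 4, so that it shared with Irf1 and Ifitm3 the high level in both Treg-depleted libraries of experiment 1. Ptpn1, a phosphatase that acts on JAK2 and TYK2, had 0.17 (SE 0.12) between conditions.

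Targets outside the 47 genes were followed in 2 further lists. Of 20 further gamma targets 12 were tested, with 0 passing. All 12 were positive between conditions (median 0.48), and 11 were lower in experiment 2 than in experiment 1 (median -0.99). Of 16495 genes tested, 8303 were positive between conditions and 8691 were lower in experiment 2. The sum of the 20 targets was 433 CPM in Treg-depleted replicate 1 and 185 to 216 CPM in the other Treg-depleted libraries. In Treg-sufficient libraries it ran from 177 to 282 CPM. Cxcl9, a T cell chemokine gene, stood at 5.73, 8.50, 2.78 and 2.91 CPM in Treg-sufficient and at 43.1, 7.26, 3.52 and 4.01 CPM in Treg-depleted replicates 1 to 4. Cd274, which encodes PD-L1, had 7.55 CPM in Treg-depleted replicate 1 and 1.07 to 2.39 CPM elsewhere. Both repeated the single high library of the GTPase genes. The antigen-processing genes Nlrc5 and Tap1 had log2 fold changes of 0.35 (SE 0.24) and 0.00 (SE 0.16). Of 51 further interferon-stimulated genes 41 were tested. Between conditions 30 were positive (median 0.22) and 0 passed, and between experiments 38 were lower in experiment 2 and 2 passed, both lower. The 2 that passed, chosen after their values were seen, were Shisa5 (-0.92, edgeR adjusted p = 0.0439) and Nmi (-1.09, edgeR adjusted p = 0.0446). Between conditions Parp12 had 0.41 and Ly6e -0.03. Of 14 genes of nucleic acid sensing and its adaptors 11 were tested, and 0 passed between conditions. The adaptor gene Myd88, 1 of the 11, passed between experiments (-0.70, edgeR adjusted p = 0.0439), while Tlr3, Tbk1 and Traf3 had 0.29, 0.04 and 0.16 between conditions. Between experiments 1.62% of all genes tested passed, so calls for Shisa5, Nmi and Myd88 do not set their lists apart. Leaving out each library in turn moved the number of all genes called there to between 0 and 679, and no condition term to 0.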

How the data were processed

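RNA from sorted, flash-frozen cells was made into stranded mRNA libraries, per the labels' protocols. The authors deposited raw read counts per gene for 8 libraries. The submitters' processing notes name TopHat2, SAMtools, HTSeq, DESeq2 and GRCm38.p4, with no roles; the annotation release, and whether counting used strand, is not given in the sources used here. Rows for reads assigned to no single gene (6.63% to 10.8% in no gene, 2.72% to 3.01% in several genes, 26.2% to 30.6% at several places) were left out of library totals and tests.

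Genes were filtered with filterByExpr (minimum count 10), scaled by TMM and tested with edgeR 4.0.16 in R 4.3.3 by the quasi-likelihood F-test, with Benjamini-Hochberg adjustment over 16495 genes and a threshold of 0.05. Condition and experiment were fitted together (5 residual degrees of freedom). Effects within an experiment and the interaction came from a model of 4 groups (4 residual degrees of freedom). limma 3.58.1, DESeq2 1.42.0, other scalings, no filter, other model terms and leaving out libraries were alternatives. The tests were checked on simulated counts with 200 genes changed in each comparison. A log2 change of 1 was recovered for 56% between conditions and 28% in each experiment. It was recovered for 2% in the interaction and 68% between experiments. A log2 change of 2 was recovered for 95%, 85% (experiment 1), 77% (experiment 2), 61% and 97%, in that order. False calls made up 3.21% to 8.33% of calls. A gene that did not pass may thus still have changed. Levels are CPM, divided by union exon length where genes are compared.

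Whether the title letters shared by the conditions pair the libraries cannot be told. Deviations of same-letter libraries correlated at -0.26 in experiment 1 and -0.23 in experiment 2 over 10045 genes. With 2 libraries in a group, crossing the letters only reverses the sign of that correlation. The 2 libraries with Xist reads share a letter. In each role the member with the highest mean level and that with the smallest p in each comparison were described with full tests, with every member that passed; from each pathway list, the 2 highest and the 2 with the smallest p between conditions. Other members are named with levels. The members and lists were chosen with earlier results of these data known.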

Additional observations from a re-analysis of the deposited data

Results flagged for a closer look

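Among 20 members screened in 40 groups of 4 libraries, 3 had a library that stood apart from the other 3 of its condition by Dixon's criterion, and each time it was Treg-depleted replicate 1. For independent normal values, about 1 in 20 groups would be flagged. The groups pool both experiments, and 22.5% of all genes tested were highest in Treg-depleted replicate 1. The share of all genes flagged was not counted, so the 3 are not read as a result about the members. Irf9 stood there at 114.81 CPM (gap over range 0.947), Oasl2 at 37.972 CPM (0.841) and Irgm1 at 22.762 CPM (0.84).

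For 3 members both Treg-depleted libraries lay on one side of the Treg-sufficient ones in experiment 1 and on the other side in experiment 2. This was 6.98% of the 43 members tested, against 4.41% of all genes tested (727 of 16495). The log2 difference of the condition effect between experiments was 3.161 for Oas2 and 2.4196 for Mx1, whose Treg-depleted libraries lay below in experiment 1 and above in experiment 2. For Ifi35 it was -0.4776, in the opposite direction. In edgeR's interaction test the adjusted p was 0.941, 0.862 and 0.941, so none of the 3 passed.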

How the results depend on the processing

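The cause of the changes listed here was not tested. DESeq2 and edgeR without a filter on low counts called more genes in each comparison. Between conditions DESeq2 called 82 genes and 1 member, and no filter 820 and 7. In experiment 1 DESeq2 called 721 and 4, no filter 1152 and 8, and the fit without both libraries with Xist reads 487 and 4, against 100 and 2. Leaving out each library in turn gave 16 to 443 genes and 0 to 2 members in experiment 1. In experiment 2 DESeq2 called 1 gene and no filter 132, with 0 members. For the interaction DESeq2 called 182 genes and 2 members, no filter 534 and 3, the fit without both Xist libraries 87 genes, and leaving out each library 0 to 9 genes. Between experiments (268 genes, 0 members) DESeq2 called 2133 and 8, no filter 2443 and 16, the 4-group model 1058 and 2, no condition term 0 genes, the fit without both Xist libraries 2 genes, and leaving out each library 0 to 679 genes and 0 to 2 members.

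Of the values of single genes under alternatives, 1294 kept direction and side of the threshold, 63 changed sign, 37 newly passed and 11 no longer passed. Leaving out each library in turn, log2 fold changes between conditions ran from -0.0618 to 0.15 for Adar, -0.0559 to 0.56 for Ifit1, -0.22 to 0.90 for Oasl2, -0.019 to 0.0996 for Ifnar1, -0.0864 to 0.21 for Ifngr2, -0.26 to 0.20 for Ly6e, -0.18 to 0.10 for Tap1 and -0.0216 to 0.0845 for Tbk1. In experiment 1 they ran from -0.40 to 0.14 for Adar, -0.94 to 0.52 for Ifit1, -0.17 to 0.73 for Irf9, -0.58 to 0.91 for Irgm1 and -1.04 to 1.55 for Oasl2. In experiment 2 they ran from -0.0446 to 0.40 for Adar, -0.0039 to 0.41 for Eif2ak2, -0.39 to 0.0457 for Ifitm3, -0.33 to 1.31 for Oasl2 and -0.20 to 1.17 for Parp14. For the interaction they ran from -1.99 to 0.0304 for Gbp2, -0.79 to 0.0753 for Ifih1, -0.45 to 0.45 for Irf9, -0.50 to 0.99 for Irgm1, -1.28 to 1.31 for Oasl2, -1.06 to 0.31 for Parp14 and -0.25 to 0.35 for Trim25. Between experiments Adar ran from -0.14 to 0.0784.

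Without both Xist libraries, experiment 1 keeps 1 library of each condition. The sign then also changed for Adar (0.25 in experiment 1, interaction -0.0888) and Ifit1 (1.01, interaction -0.43). It changed too for the interactions of Irgm1 (-0.68) and Trim25 (-0.22), and for Oas1a between conditions (0.0067). Ly6e had 0.18 without an experiment term. Tap1 was -0.0082 with DESeq2 and with its size factors, -0.0041 with upper-quartile factors, -0.0114 with limma-voom, -0.0088 without a filter and -0.0163 with the replicate block of title letters. That block, and the crossed pairing added after seeing the data, each called 0 genes and 0 members between conditions, with members' medians of 0.2467 and 0.2513, so neither changed a call in that comparison. The other comparisons were not fitted with either block. Members under 1 CPM rest on few counts, and their fold changes are imprecise at this depth.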
